A study of Mus musculus with 24 samples.

Results

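The GIMAP genes (GTPases of immunity-associated proteins) were followed in mouse CD4+ T cells. The members are Gimap1, Gimap3, Gimap4, Gimap5, Gimap6, Gimap7, Gimap8 and Gimap9, which are all 8 genes named for this account. They were chosen by gene name and not by their measured levels. The array table names only Gimap1 and Gimap8 by their current symbols, on 2 probes. The other 6 genes stand there under older names, such as Ian4 for Gimap3, Ian6 for Gimap6, Ian3 for Gimap7 and E230026N22Rik for Gimap5, and were found by the RefSeq accession of the probe. In this way 11 of the 25697 probes, standing for 8 of 17871 genes, were assigned to the family. Gimap1, Gimap4 and Gimap5 have 2 probes each and the other 5 genes have 1.

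The cells were resting naïve cells, naïve cells stimulated for 24 h with plate-bound anti-CD3 and anti-CD28, resting Th2 cells, and Th2 cells stimulated for 1.5 h with PMA (50 ng/ml) and ionomycin (500 ng/ml). Resting Th2 cells were obtained by culturing naïve cells on the same antibodies with IL-4 and anti-IFN-γ, followed by expansion in IL-2. Each state was measured in WT cells and in cells lacking BAF180 (KO), which is encoded by Pbrm1 and belongs to the PBAF form of the SWI/SNF chromatin remodelling enzyme, with 3 Illumina MouseRef-8 v2 arrays per group (replicates A, B and C) and 24 arrays in all. The donors were 4 to 6 weeks old and, per the labels, Balb/c. The methods of the study describe a conditional Pbrm1 allele kept in a mixed genetic background that included B6 and crossed to CD4-Cre mice. CD4-Cre acts in thymocytes before CD4 and CD8 cells separate, so the deletion precedes the culture of the cells. Whether the WT mice carried CD4-Cre is not given in the sources used here. The labels do not say whether the replicates came from separate mice. Per a legend of the study, the array RNA came from mice in 3 pairs, each WT with BAF180-deficient, without word on which arrays form a pair or whether a mouse gave cells of several states.

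GIMAP proteins share a GTP-binding domain related to that of the septins, and many of them sit on the membranes of intracellular organelles. They are found mainly in lymphocytes and are known for their part in lymphocyte survival. Gimap5 is a lysosomal membrane protein whose loss leaves mice and rats with few peripheral T cells. Gimap3 is its close relative, and Gimap1 is required for the survival of mature B and T cells. Gimap6 binds a member of the GABARAP family of autophagy proteins. Gimap7 can stimulate the GTP hydrolysis of other family members, Gimap8 carries several GTPase domains in a single protein, and Gimap4 has been linked to T cell death and cytokine secretion.

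The genes lie side by side on mouse chromosome 6, from 48647186 to 48770851 (GRCm38.p6), over 123.7 kb with 0 other protein-coding genes between them. From the low to the high end the order is Gimap8, Gimap9, Gimap4, Gimap6, Gimap7, Gimap1, Gimap5 and Gimap3. Gimap6 and Gimap3 are on the minus strand and the other 6 on the plus strand. Gimap5 (48746197 to 48754200) begins just beyond the end of Gimap1 (48739047 to 48743795), which is read in the same direction. Gimap7 lies at 48718621 to 48724636 and Gimap6 at 48701583 to 48708244.

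The 250 bases before the annotated start are printed for 3 genes whose levels moved most. These are Gimap5, which rose when Th2 cells were stimulated, Gimap7, which fell most in that comparison, and Gimap6, which fell most when naïve cells were stimulated. Sequences are from RefSeq (GRCm38.p6), read 5′ to 3′ on the strand of the gene, and capitals mark matches to any of the 6 motifs described after them. The windows are chr6:48745947-48746196 (plus strand), chr6:48718371-48718620 (plus strand) and chr6:48708245-48708494 (minus strand).
Gimap5: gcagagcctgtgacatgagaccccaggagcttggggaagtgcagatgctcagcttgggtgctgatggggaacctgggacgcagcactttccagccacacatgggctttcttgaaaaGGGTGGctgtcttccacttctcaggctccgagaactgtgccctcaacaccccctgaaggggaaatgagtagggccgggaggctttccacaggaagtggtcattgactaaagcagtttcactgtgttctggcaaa
Gimap7: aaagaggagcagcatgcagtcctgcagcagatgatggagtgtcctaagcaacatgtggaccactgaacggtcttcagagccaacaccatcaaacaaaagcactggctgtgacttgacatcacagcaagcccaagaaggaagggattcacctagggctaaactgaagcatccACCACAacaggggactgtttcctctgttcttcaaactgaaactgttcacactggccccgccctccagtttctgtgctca
Gimap6: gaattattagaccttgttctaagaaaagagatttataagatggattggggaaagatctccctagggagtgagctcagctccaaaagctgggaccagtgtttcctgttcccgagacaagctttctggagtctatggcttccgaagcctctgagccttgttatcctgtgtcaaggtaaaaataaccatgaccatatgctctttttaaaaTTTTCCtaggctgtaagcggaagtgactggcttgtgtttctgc

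The motifs searched on both strands were CCGGAA for ETS factors, TGTGGT for RUNX, TGTTTAC for FOXO, CCACCC for KLF, GGAAAA for NFAT and TGANTCA for AP-1. All 8 genes matched the promoter table, with 9 windows because Gimap8 has 2. The KLF letters were found in 5 of the 9 windows (Gimap3, Gimap4, Gimap5, Gimap8 and Gimap9), against 28.1% of the 32851 windows of all genes. RUNX letters stood in 3 (Gimap1, Gimap4 and Gimap7, 14% of all windows) and NFAT letters in 3 (Gimap1, Gimap3 and Gimap6, 20.4%). The FOXO letters were in 1 (Gimap3, 3.17%), and the ETS (12%) and AP-1 (6.75%) letters were in 0. A match is a string of letters and not a measured binding site.

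Between 8047 and 10689 probes were detected per array, and the number of arrays limits the precision. All 7 pan-T markers, among them Cd3e and Cd4, were detected on every array. The 8 Th2 markers had a summed level of 20888 to 26229 in stimulated Th2 cells and 348 to 665 in resting naïve cells, and Il1rl1 was not detected in resting Th2 cells. Levels are background-corrected, quantile-normalized intensities on the log2 scale, and these sums are on the linear scale. Pbrm1 was lower in KO cells of every state on its brightest probe, by -1.01 (adjusted p = 0.121) in resting naïve, -1.63 (adjusted p = 0.00746) in stimulated naïve, -1.86 (adjusted p = 0.00101) in resting Th2 and -1.42 (adjusted p = 0.0141) in stimulated Th2 cells on the log2 scale. The other 2 Pbrm1 probes were lower by less, with adjusted p of 0.694 or more. Where these probes lie relative to the deleted exon was not tested.

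Of the 8 genes, 7 were detected on 24 of 24 arrays. Gimap4 was at the edge of detection, with an intensity of 42.2 to 56.8 on 1 probe (detected on 15 of 24 arrays) and of 37.5 to 46.2 on the other (0 of 24), beside array medians of 40.6 to 48.9. No change of Gimap4 passed a test in any comparison, and its level in these cells was not measurable on these probes. The other genes are described by their brightest probe. Levels of different probes are not on a common scale, so genes are compared by their changes only.

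**Figure D1:**
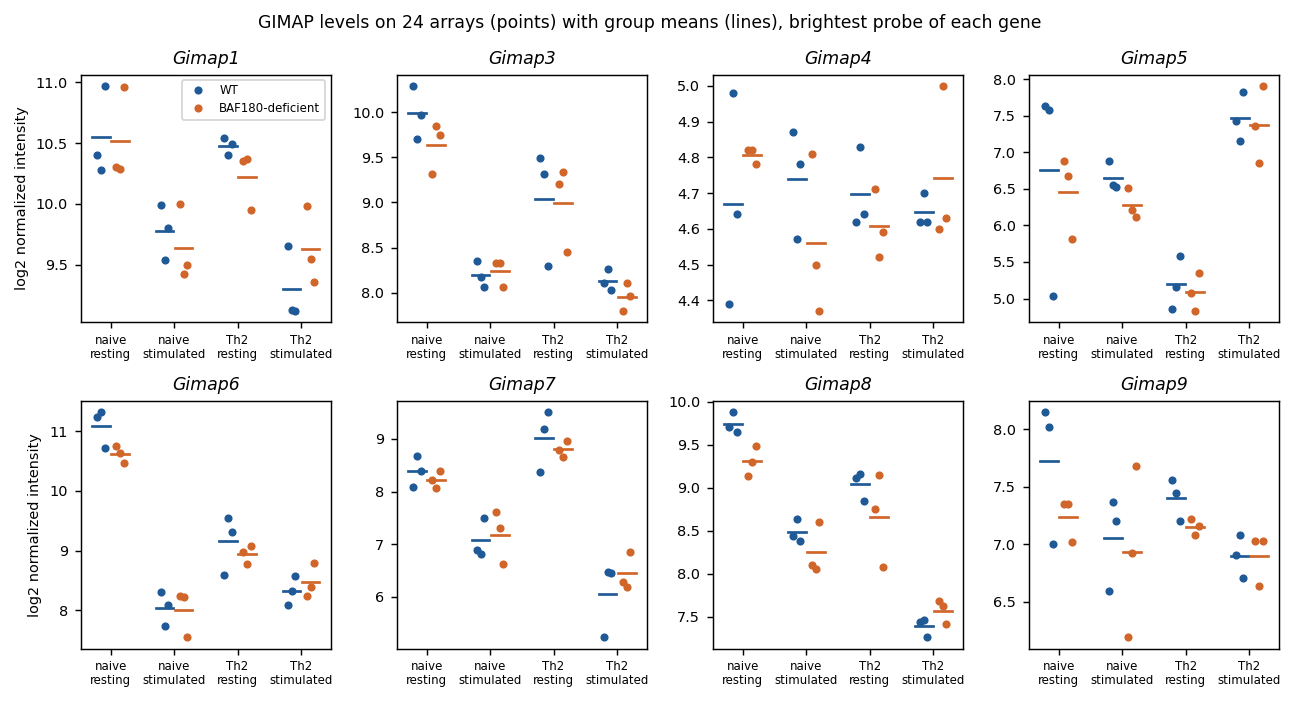
Log2 normalized intensity of the 8 GIMAP genes (brightest probe, 1 panel each with its own vertical axis) on 24 arrays in 4 cell states, with points for arrays and lines for group means of 3 arrays (WT blue, BAF180-deficient orange). Gimap6 and Gimap3 were highest in resting naïve cells, Gimap7 was highest in resting cells of both kinds, and Gimap5 was highest in stimulated Th2 cells.

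When WT naïve cells were stimulated through CD3 and CD28, 5 of the 8 GIMAP genes fell and 0 rose. Gimap6 fell 8.27-fold, Gimap3 3.46-fold, Gimap7 2.48-fold, Gimap8 2.39-fold and Gimap1 1.71-fold. Gimap5 and Gimap9 did not pass the test. At this threshold (adjusted p under 0.05) 43.6% of all 14246 probes changed and 20.0% fell, so a fall of a gene was common here. The median of the members was -1.02 on the log2 scale and that of all probes 0.0130.

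Gimap6 read 11.24, 11.32 and 10.72 in the 3 resting naïve WT arrays (A, B, C) and 8.30, 7.74 and 8.09 in the stimulated ones. Every stimulated array was below every resting array, a separation without overlap that 48.2% of all probes showed in one direction or the other. The difference was -3.05 (SE 0.24, adjusted p = 2.81e-09), the largest of the family in this comparison. Gimap3 read 10.29, 9.70 and 9.97 in resting and 8.35, 8.18 and 8.06 in stimulated cells, a difference of -1.79 (SE 0.25, adjusted p = 8.22e-06). The Gimap3 arrays were also separated without overlap. Gimap8 went from 9.71, 9.88 and 9.65 to 8.44, 8.64 and 8.38, and differed by -1.26 (SE 0.20, adjusted p = 3.22e-05).

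Gimap7 read 8.08, 8.68 and 8.39 in resting and 6.89, 6.82 and 7.50 in stimulated cells, again without overlap. Its difference of -1.31 had an SE of 0.33 (adjusted p = 0.00251). Gimap1 read 10.40, 10.28 and 10.97 at rest and 9.99, 9.54 and 9.80 after stimulation, and the difference of -0.78 (adjusted p = 0.00868) no longer passed without resting naïve WT replicate C (-0.57). The dimmer Gimap1 probe differed by -0.37 (adjusted p = 0.336).

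Gimap5 depended on 1 array. It read 7.64, 7.58 and 5.04 in the resting naïve WT arrays and 6.88, 6.55 and 6.53 in the stimulated ones, so that replicate C of the resting cells was far below its 2 companions. With it the difference was -0.10 (95% confidence interval -1.07 to 0.87), and without it -0.96, which passed. On the dimmer Gimap5 probe the same 3 resting arrays read 6.26, 6.26 and 6.18, so the low value of replicate C was seen with the brighter probe and not with the dimmer one. The dimmer probe differed by -0.41 (adjusted p = 0.0762). Gimap9 behaved alike, with 8.15, 8.02 and 7.00 at rest and 6.59, 7.37 and 7.20 after stimulation. Its difference was -0.67 (adjusted p = 0.0799), and -1.03 without replicate C, which passed.

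In BAF180-deficient cells the same 5 genes fell on stimulation of naïve cells, beside 41.6% of all probes changed and 19.3% lower. The differences were -2.61 for Gimap6, -1.40 for Gimap3, -1.06 for Gimap8, -1.04 for Gimap7 and -0.87 for Gimap1. Gimap7 (adjusted p = 0.0139) no longer passed without stimulated naïve KO replicate C (-0.76). Gimap5 gave -0.18 and Gimap9 -0.31, neither past the threshold.

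Summed markers of B and myeloid cells were higher in the resting naïve samples, which the labels give as 95% pure. The summed level of 6 B cell markers was 4843 to 8136 in the 6 resting naïve arrays and 158 to 1535 in the other 18. Singly, 2 of the 6 were called lower in stimulated naïve and 2 in resting Th2 WT cells (2 and 3 in KO), beside 20.0% and 16.0% of all probes in WT. Ms4a1 was not detected on any resting naïve WT array. Of 6 myeloid markers, 5 were measurable and summed to 1463 to 4684 in resting naïve arrays and to at most 59.3 in all others, where Lyz2, Cd14 and Tyrobp were detected on 0 arrays. Of 6 CD8 and NK markers 4 were kept, and their sums overlapped (331 to 758 against 79.5 to 369). In stimulated naïve and resting Th2 cells 1 and 1 of the 4 were called lower in WT, and 2 and 3 in KO. Of 5 endothelial markers 3 were kept (233 to 330 against 25.3 to 145), and 2 of the 3 were called lower in each of these comparisons. B cells also express GIMAP genes. The part of other cell types in the fall of GIMAP levels from resting naïve cells was not tested. Fewer cells of a type cannot be told apart from less RNA per cell. For stimulated against resting Th2 cells the difference is between means of Th2 arrays only. Its SE, p and interval come from the fit of all groups, so the spread of the resting naïve arrays enters them.

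Resting Th2 cells held less Gimap6, Gimap5, Gimap3 and Gimap8 than resting naïve cells. In WT cells Gimap6 was 3.82-fold, Gimap5 2.94-fold, Gimap3 1.94-fold and Gimap8 1.63-fold lower, so 4 of 8 members fell and 0 rose, beside 34.4% of all probes changed and 16.0% lower. For Gimap7 the level was 9.02 ± 0.59 in Th2 cells at rest against 8.38 ± 0.30 in naïve ones (SD, n = 3), and its difference of 0.64 did not pass (adjusted p = 0.139). The member median was -0.513 and that of all probes 0.0303.

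Gimap6 read 8.60, 9.55 and 9.32 in resting Th2 WT arrays, all below the resting naïve arrays (42.9% of all probes separated without overlap), with a difference of -1.93 (SE 0.24, adjusted p = 2.60e-06). Gimap8 read 9.11, 9.16 and 8.85, also below every naïve array, with -0.71 (SE 0.20, adjusted p = 0.00939). Gimap3 read 9.49, 9.31 and 8.30 with -0.96 (SE 0.25, adjusted p = 0.00605), and no longer passed without resting Th2 WT replicate C (-0.59).

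Gimap5 read 4.86, 5.16 and 5.58 in resting Th2 WT cells and overlapped the naïve arrays only through naïve replicate C. Its intensities in these Th2 arrays were 54.8 to 70.4, near background beside array medians of 40.6 to 48.9. The difference was -1.55 (SE 0.46, adjusted p = 0.0131). Leaving out naïve replicate A (-1.11) or B (-1.14) or Th2 replicate A (-1.38) ended the call, and without naïve replicate C the difference was -2.41. The dimmer Gimap5 probe was lower as well, by -0.66 (adjusted p = 0.00725) in WT and by -0.58 (adjusted p = 0.0177) in KO cells, without overlap of the arrays in either. Gimap1 differed by -0.07 and Gimap9 by -0.32, both within the spread between arrays. On the dimmer Gimap1 probe the difference was 0.57 (adjusted p = 0.142).

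In BAF180-deficient cells 3 members were lower in resting Th2 than in resting naïve cells, beside 34.7% of all probes changed and 15.9% lower. They were Gimap6 with -1.68 (adjusted p = 1.60e-05), Gimap5 with -1.37 (adjusted p = 0.0269) and Gimap8 with -0.65 (adjusted p = 0.0157). Gimap3 gave -0.64 (adjusted p = 0.0563), and passed with the replicate letter as a block (adjusted p = 0.0354). The calls of Gimap5 and Gimap8 were fragile. Gimap5 was lost without naïve KO replicate A (-1.16) or B (-1.26), or Th2 KO replicate A (-1.37) or B (-1.24). Gimap8 was lost without naïve KO replicate C (-0.56) or Th2 KO replicate C (-0.36). Gimap3 passed without naïve KO replicate A (-0.80) or Th2 KO replicate B (-0.81), and Gimap7 passed in WT cells without Th2 WT replicate A (0.97).

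After 1.5 h of PMA and ionomycin, 5 GIMAP genes fell in WT Th2 cells while Gimap5 rose. Gimap7 fell 7.82-fold, Gimap8 3.14-fold, Gimap1 2.26-fold, Gimap3 1.86-fold and Gimap6 1.78-fold, and Gimap5 rose 4.82-fold. Thus 6 of the 8 members changed, 5 lower and 1 higher, beside 27.3% of all probes changed, 14.3% lower and 13.0% higher. The member median was -0.863 and that of all probes -0.00184. The 4.82-fold rise of Gimap5 is that of its brighter probe, and the dimmer one rose 2.02-fold. At rest the brighter probe was near background in WT cells, with intensities of 54.8 to 70.4 beside array medians of 40.6 to 48.9.

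Gimap5 read 4.86, 5.16 and 5.58 in resting and 7.43, 7.16 and 7.82 in stimulated WT Th2 arrays. The lowest stimulated array was above the highest resting one, and 40.3% of all probes separated in this way in either direction. The difference was 2.27 (SE 0.46, adjusted p = 0.000812). The dimmer probe read 5.49, 5.52 and 5.70 at rest and 6.88, 6.67 and 6.22 after stimulation, a difference of 1.02 (SE 0.18, adjusted p = 0.000201), again without overlap. Both probes therefore rose, the brighter one by more. In resting Th2 WT cells the mean of the brighter probe (5.20) was below that of the dimmer one (5.57). In BAF180-deficient Th2 cells the brighter probe went from 5.08, 4.83 and 5.35 to 7.36, 6.86 and 7.91, a difference of 2.28 (SE 0.46, adjusted p = 0.000877), and the dimmer probe rose by 0.70 (adjusted p = 0.00629).

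**Figure D2:**
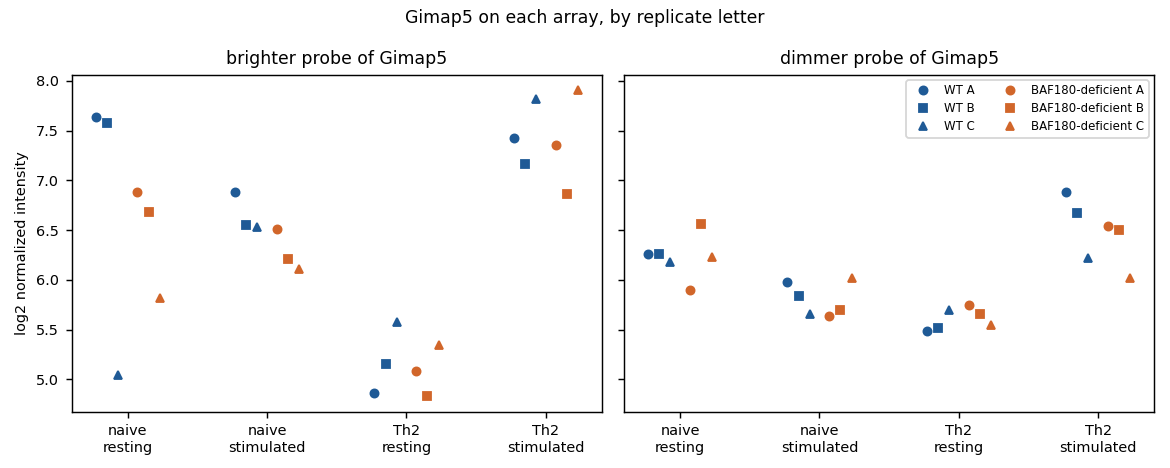
Log2 normalized intensity of the brighter (left) and the dimmer (right) Gimap5 probe on each of 24 arrays, by cell state, with colour for genotype and marker shape for replicate A, B or C. Both probes rose from resting to stimulated Th2 cells, and the low value of replicate C in resting naïve WT cells (5.04) is seen on the brighter probe only (6.18 on the dimmer one).

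Gimap7, its neighbour but one in the cluster, moved the other way. It read 8.37, 9.19 and 9.51 in resting and 5.23, 6.48 and 6.46 in stimulated WT Th2 arrays, a difference of -2.97 (SE 0.33, adjusted p = 6.88e-07). Gimap8 went from 9.11, 9.16 and 8.85 to 7.44, 7.46 and 7.26, or -1.65 (SE 0.20, adjusted p = 2.59e-06). Stimulated arrays of both genes lay below all resting arrays. Gimap1, which ends shortly before Gimap5 begins, went from 10.54, 10.40 and 10.49 to 9.65, 9.13 and 9.12, or -1.18 (SE 0.23, adjusted p = 0.000480). Its dimmer probe fell by 0.80 on the log2 scale (adjusted p = 0.0463).

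Gimap3, on the far side of Gimap5, went from 9.49, 9.31 and 8.30 to 8.11, 8.26 and 8.03, or -0.90 (adjusted p = 0.0110), and did not pass without resting Th2 WT replicate A (-0.67) or B (-0.76). Gimap6 went from 8.60, 9.55 and 9.32 to 8.09, 8.32 and 8.57, or -0.83 (adjusted p = 0.0122). It did not pass without resting replicate B (-0.63) or C (-0.75) or stimulated replicate A (-0.71). Gimap9 differed by -0.50 (adjusted p = 0.257). Gimap3 and Gimap5 are close relatives, and whether a probe also binds the transcript of another member was not tested.

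**Figure D3:**
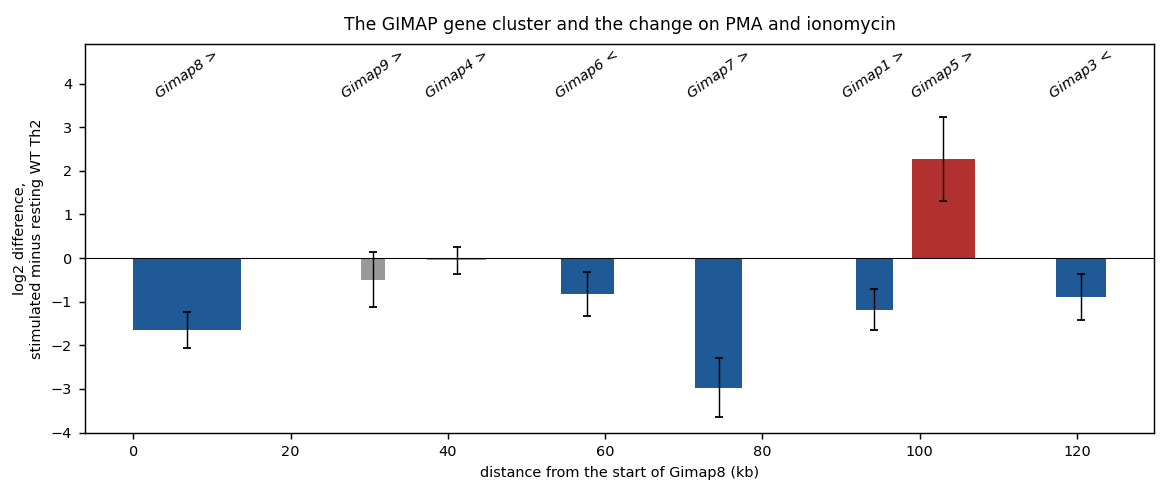
Change of each GIMAP gene in stimulated minus resting WT Th2 cells (log2 difference, bars, with 95% confidence intervals from the limma fit of 24 arrays) drawn at the gene's place in the cluster, as distance in kb from the start of Gimap8, with arrowheads after the names for the direction of reading. Gimap5 (2.27, red) rose between Gimap1 (-1.18) and Gimap3 (-0.90), which fell (blue), and the grey bars of Gimap9 and Gimap4 did not pass the test.

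In BAF180-deficient Th2 cells 4 members changed on stimulation, beside 25.8% of all probes, with 13.8% lower. Beside the rise of Gimap5, Gimap7 fell by 2.36 (adjusted p = 1.46e-05), Gimap8 by 1.09 (adjusted p = 0.000339) and Gimap3 by 1.04 (adjusted p = 0.00423) on the log2 scale. Gimap1 gave -0.59 (adjusted p = 0.0621, and 0.0441 with the replicate letter as a block) and Gimap6 -0.47 (adjusted p = 0.173). Gimap1 passed without resting Th2 KO replicate C (-0.73) or stimulated Th2 KO replicate A (-0.77).

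**Figure D4:**
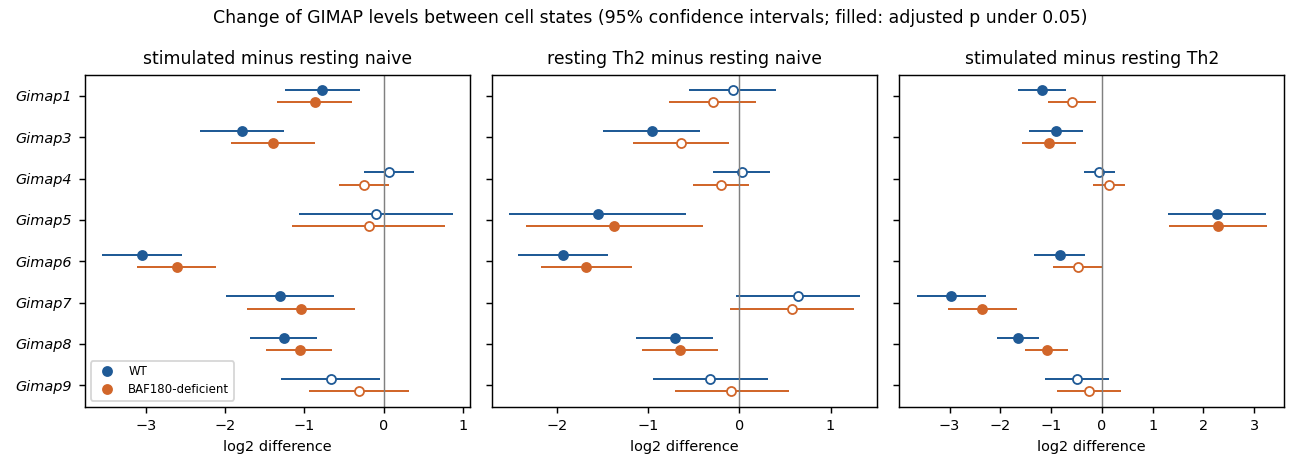
Log2 difference of each GIMAP gene in 3 changes of state (panels) with 95% confidence intervals, for WT (blue) and BAF180-deficient cells (orange), with filled points where the adjusted p was under 0.05. Gimap6 has the largest fall in stimulated naïve cells, Gimap7 the largest fall in stimulated Th2 cells, and Gimap5 lies to the right of 0 in stimulated Th2 cells of both genotypes.

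Across the 4 states the WT levels did not follow a single order. Neighbours in the order of each gene were compared with the same threshold, which passed for 48.5% of all probes between stimulated Th2 and resting naïve cells, for 22.3% between resting Th2 and stimulated naïve cells and for 20.1% between stimulated Th2 and stimulated naïve cells. Gimap6 was highest in resting naïve cells (11.09 ± 0.33, SD, n = 3), then in resting Th2 (9.16 ± 0.49), stimulated Th2 (8.33 ± 0.24) and stimulated naïve cells (8.04 ± 0.29), and only the last neighbours in this order did not differ past the threshold (adjusted p = 0.503). Gimap3 went from 9.99 ± 0.30 in resting naïve to 9.03 ± 0.64 in resting Th2, 8.20 ± 0.14 in stimulated naïve and 8.13 ± 0.12 in stimulated Th2 cells, the last pair again not separated (adjusted p = 0.930). For Gimap8 the order was resting naïve (9.75 ± 0.12), resting Th2 (9.04 ± 0.17), stimulated naïve (8.49 ± 0.14) and stimulated Th2 (7.39 ± 0.11), where the middle step had an adjusted p of 0.0542.

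Gimap7 was highest in resting Th2 cells (9.02 ± 0.59), not separated from resting naïve cells (8.38 ± 0.30), and lower in stimulated naïve (7.07 ± 0.38) and lowest in stimulated Th2 cells (6.06 ± 0.71, adjusted p = 0.0315 against stimulated naïve cells). Gimap1 did not differ between resting naïve (10.55 ± 0.37) and resting Th2 cells (10.48 ± 0.07) past the threshold, nor between stimulated naïve (9.78 ± 0.23) and stimulated Th2 cells (9.30 ± 0.30, adjusted p = 0.165), while resting Th2 cells were above stimulated naïve cells (adjusted p = 0.0305). Gimap9 stepped from 7.72 ± 0.63 over 7.40 ± 0.18 and 7.06 ± 0.41 to 6.90 ± 0.18 in the same order of states as Gimap8, with no neighbours separated and the ends apart by -0.82 (adjusted p = 0.0290). Gimap5 alone had its highest mean in stimulated Th2 cells (7.47 ± 0.33), followed by resting naïve (6.76 ± 1.48), stimulated naïve (6.65 ± 0.20) and resting Th2 cells (5.20 ± 0.36). Of these steps the one from stimulated naïve to resting Th2 cells passed (-1.45, adjusted p = 0.0282). It did not pass on the dimmer probe (-0.26, adjusted p = 0.383), nor on the brighter probe in KO cells (-1.18, adjusted p = 0.0801).

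No GIMAP gene met the criteria taken from the study, applied here to the normalized log2 values, for a difference between BAF180-deficient and WT cells in any state. The criteria were a Z-ratio beyond 1.5 in size, where the difference is scaled by the SD that all probes show in that comparison, a false discovery rate under 0.3, a p under 0.05 and a signal above 0. With the Z-score normalization of the methods the count of members was also 0 in each of the 4 states. On the values used here 0 of 8 members changed in resting naïve cells (0.681% of all probes did), 0 in stimulated naïve (0.112%), 0 in resting Th2 (0.0842%) and 0 in stimulated Th2 cells (0.0913%). Applied to the changes of state, the same criteria counted 2 members in stimulated naïve cells of WT (11.7% of all probes) and 2 in those of KO (12.1%), and 2 in resting Th2 against naïve WT cells (9.93%). At an unadjusted p under 0.05 in the limma fit the counts of members were 1, 0, 0 and 0, beside 6.83%, 2.25%, 3.43% and 2.79% of all probes. By direction alone, 7 of 8 members were lower in resting naïve, 8 of 8 in resting Th2, 6 of 8 in stimulated naïve and 3 of 8 in stimulated Th2 cells. Counted in are Gimap4, at the edge of detection, and small differences such as -0.03 for Gimap3 in resting Th2 cells. The members share arrays, so these counts carry no test. The member medians were -0.323 and -0.129 in resting and stimulated naïve cells and -0.218 and 0.120 in resting and stimulated Th2 cells, where those of all probes were within 0.00172 of 0.

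Gimap8 came nearest to a change. In resting naïve cells it read 9.71, 9.88 and 9.65 in WT and 9.14, 9.30 and 9.49 in KO arrays, without overlap (as for 7.99% of all probes). The difference was -0.44 (95% confidence interval -0.85 to -0.02, unadjusted p = 0.0421 and adjusted p = 0.704 in limma). In resting Th2 cells it was -0.38 (-0.80 to 0.04), in stimulated naïve cells -0.24 (-0.66 to 0.18) and in stimulated Th2 cells 0.18 (-0.24 to 0.60). In resting naïve cells Gimap6 read 10.75, 10.64 and 10.46 in KO arrays against 11.24, 11.32 and 10.72 in WT arrays, with a difference of -0.48 (-0.98 to 0.02). Gimap9 read 7.35, 7.35 and 7.02 against 8.15, 8.02 and 7.00, or -0.49 (-1.11 to 0.14), and Gimap3 differed by -0.35 (-0.88 to 0.18). Gimap5 read 6.88, 6.68 and 5.82 in KO arrays and differed by -0.30 (-1.27 to 0.67), the widest interval of the family. The dimmer Gimap5 probe read 5.90, 6.56 and 6.23 in KO and 6.26, 6.26 and 6.18 in WT arrays, and differed by -0.00 (-0.38 to 0.37).

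These results depended on replicate C of resting naïve WT cells. Without it Gimap5 (-1.15) and Gimap9 (-0.85) met the criteria, and with replicates A and B only in every group Gimap5 (-0.83) and Gimap8 (-0.57) did. For Gimap5 these values are from the brighter probe, and replicate C of WT was not low on the dimmer one. The count for all probes rose as well, from 97 to 616 of 14246 without that array and to 359 with A and B only. That array had the highest summed myeloid level of the 24 (4684, against 1463 to 2120 in the other resting naïve arrays). The 2 resting naïve arrays of replicate C also had lower summed activation markers (4939 and 5055) than the 4 of A and B (8252 to 9218). The part of these differences in the GIMAP values was not tested.

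**Figure D5:**
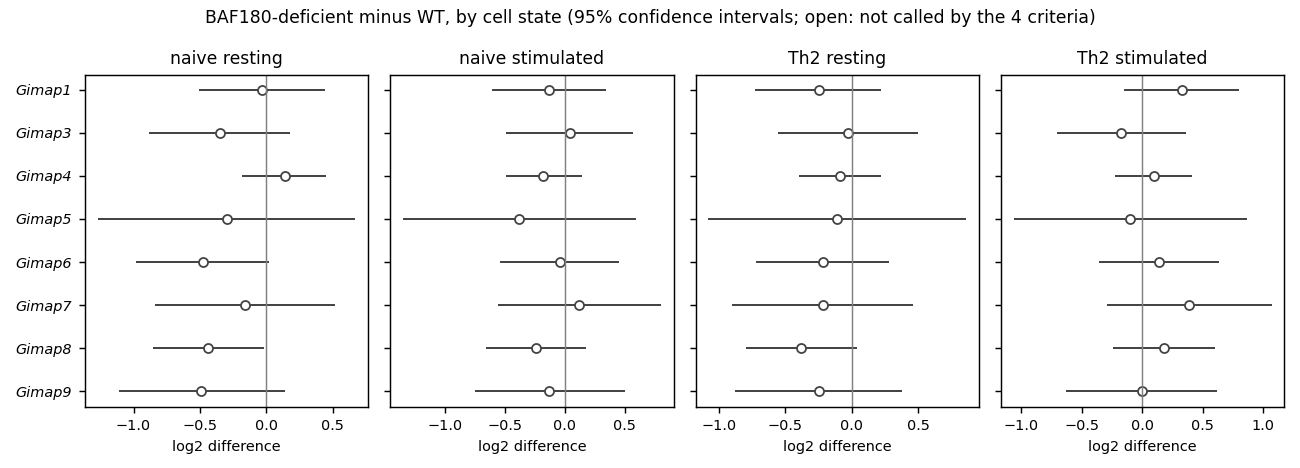
Log2 difference of each GIMAP gene in BAF180-deficient minus WT cells with 95% confidence intervals from limma, in 4 cell states (panels, 3 arrays per group). All points are open because none met the 4 criteria, and every interval includes 0 except that of Gimap8 in resting naïve cells (-0.85 to -0.02).

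Whether the change of state differed by genotype was tested as an interaction, and no member passed. In the tests of interaction 0 of 8 passed for stimulation of naïve cells (0.00702% of all probes did), 0 for resting Th2 against resting naïve cells (0.00702%) and 0 for stimulation of Th2 cells (0% of all probes). At an unadjusted p under 0.05 the counts were 0, 0 and 0 in limma, beside 2.31%, 2.72% and 1.80% of all probes. On stimulation of Th2 cells the fall was smaller in KO cells by 0.56 for Gimap8 (95% confidence interval -0.03 to 1.15), 0.58 for Gimap1 (-0.09 to 1.26) and 0.61 for Gimap7 (-0.35 to 1.57). For Gimap5 the rise on the brighter probe differed by 0.02 between genotypes, with an interval of -1.35 to 1.39 that leaves room for large differences either way. That interval rests on a spread pooled over all groups, in which resting naïve WT cells had the largest SD (1.48). The SDs of the Th2 groups were 0.26 to 0.52. On the dimmer probe the rise differed by -0.32 (-0.85 to 0.21).

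The genes whose pattern over all 24 arrays was most like that of the family were ranked by correlation. The mean of the standardised member levels correlated best, among 10410 other genes, with Cdkn1b (Pearson r = 0.964), the cyclin-dependent kinase inhibitor p27, Map4k2 (0.954), a kinase, Itpr3 (0.953), a calcium release channel, and Ripor2 (0.951). They were followed by Ap3m2 (0.944), Txnip (0.944), which binds thioredoxin and restrains glucose uptake, Hbp1 (0.943), a transcription factor, Accs (0.941) and Ets1 (0.941), a transcription factor of lymphocytes. These values are descriptions over arrays that share the same 4 states. Each member is itself part of that mean, which raises its own correlation with it. Within the family Gimap6 (0.927), Gimap3 (0.898) and Gimap8 (0.896) were closest to the mean, followed by Gimap1 (0.785), Gimap7 (0.712), Gimap9 (0.604) and Gimap4 (0.303). Gimap5 stood at -0.177, and against Gimap7 it gave -0.650 over all arrays but 0.185 once group means were removed. Gimap6 with Gimap8 also changed sign (0.739 and -0.474), while Gimap3 with Gimap8 did not (0.878 and 0.493).

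Several genes of naïve T cells fell in the same changes of state as the family. Of all probes in WT cells, 43.6% changed on stimulation of naïve cells (20.0% lower). For resting Th2 against resting naïve cells 34.4% changed (16.0% lower), and on stimulation of Th2 cells 27.3% (14.3% lower, 13.0% higher). The counts of each marker list below stand beside these shares. Of 10 naïve markers 9 were kept, and 5 fell and 0 rose when WT naïve cells were stimulated (median -1.30), among them Il7r (-3.51), the receptor of a survival cytokine. From resting naïve to resting Th2 cells 4 fell (median -0.481), and on stimulation of Th2 cells 6 fell (median -1.23). Of 8 kept activation markers 6 rose and 2 fell in stimulated naïve cells, 3 rose and 3 fell in resting Th2 cells, and 7 rose in stimulated Th2 cells. The 2 that fell on naïve stimulation were Cd69 (-1.43) and Egr1 (-1.01), which are induced early after T cell activation and were also lower in resting Th2 than in resting naïve cells (-4.33 and -5.23). Of 7 pan-T markers 4 fell in stimulated naïve cells (median -0.605), 1 rose in resting Th2 cells and 0 changed in stimulated Th2 cells. Of 8 Th2 markers 5, 3 and 6 rose in the 3 comparisons.

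Another family of GTPases of the immune system, those induced by interferon, rose where GIMAP genes fell in stimulated naïve cells. Of 12 listed, 8 were kept, and 6 rose and 0 fell when WT naïve cells were stimulated (median 1.44), including Gbp2 (2.86) and Irgm1 (1.77), which restrict intracellular microbes. In that comparison 43.6% of all probes changed and 20.0% fell. In resting Th2 cells 1 rose, and on stimulation of Th2 cells 2 rose and 1 fell, beside 34.4% and 27.3% of all probes changed. In BAF180-deficient cells 5 rose and 0 fell in stimulated naïve cells (median 1.20), 1 rose in resting Th2 cells, and on stimulation of Th2 cells 0 rose and 3 fell (median -0.514), where the GIMAP median was -0.531. The shares of all probes changed were 41.6%, 34.7% and 25.8% in the same order. By genotype 0 of the 8 changed in each state, beside at most 0.681% of all probes.

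Of 18 genes of the BCL2 family and of autophagy, pathways in which GIMAP proteins have been placed, 17 were kept. When WT naïve cells were stimulated 2 rose and 5 fell, beside 43.6% of all probes changed and 20.0% lower. Bcl2l1, which encodes the survival protein BCL-XL, rose by 2.10 (adjusted p = 2.16e-06) and Bid, which promotes apoptosis, by 1.20 (adjusted p = 1.35e-05), while the survival gene Bcl2 changed by -1.31 (adjusted p = 0.000534) and Gabarap, an autophagy gene, by -1.23 (adjusted p = 0.000160). In resting Th2 against resting naïve cells 6 were higher and 3 lower, beside 34.4% of all probes changed and 16.0% lower. The largest were the pro-apoptotic Bax (1.34), the autophagy genes Map1lc3b (1.20) and Atg7 (-1.05), and Bcl2 (1.05). On stimulation of Th2 cells 3 rose and 5 fell, beside 27.3% of all probes changed and 14.3% lower. The largest changes were those of Bcl2l1 (1.88), Bcl2 (-1.87), Gabarapl1 (1.26) and Bad (-1.10). In BAF180-deficient cells the counts were 5 higher and 7 lower, 4 and 4, and 3 and 4 in the same order. There 41.6%, 34.7% and 25.8% of all probes changed. By genotype 1 gene met the criteria, Bid in resting naïve cells (0.68, adjusted p = 0.229), where 0.681% of all probes did.

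The genes around the cluster changed in both directions in each WT change of state. Of 20 protein-coding genes within 500 kb of its ends 17 had probes and 10 were kept. On stimulation of WT naïve cells 1 rose and 2 fell, beside 43.6% of all probes changed and 20.0% lower. These were Repin1 (1.81), Tmem176a (-1.11) and Tmem176b (-1.02), and Tra2a followed with -0.31 (adjusted p = 0.179). In resting Th2 against resting naïve cells 4 were higher and 2 lower, beside 34.4% of all probes changed and 16.0% lower. Gpnmb (4.55), Repin1 (1.72), Igf2bp3 (1.49) and Tra2a (-1.07) were the largest. On stimulation of Th2 cells 1 rose and 4 fell, beside 13.0% of all probes higher and 14.3% lower. The median of the 10 was -0.308 there, in the direction of the cluster, and that of all probes -0.00184. The largest were Gpnmb (-1.09), Zfp467 (-0.67), Tra2a (0.65) and Tmem176a (-0.65). By genotype, Gpnmb met the criteria in resting Th2 cells (-1.31, adjusted p = 0.163) and Tmem176a in resting naïve cells (0.72, adjusted p = 0.263).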

How the data were processed

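The authors hybridized biotin-labelled cRNA to Illumina MouseRef-8 v2 BeadChips and deposited, per the file headers, the average bead intensity of every probe on every array beside its detection p-value, extracted with GenomeStudio (version 1.6.0 per the labels). The deposited intensity values are not normalized, and their lowest value, 25.8, shows that background was not subtracted. Detection p-values were computed by the authors' software against negative control probes.

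Intensities were corrected with neqc (limma 3.58.1, R 4.3.3; offset 16, which shrinks the fold changes of dim probes) and quantile normalized. Kept were probes detected (p no higher than 0.02) on 1 or more of the 24 arrays (14246 probes, 10418 genes). Probes were named by Entrez ID (16938), RefSeq accession (7420), symbol (465) or synonym (553), and 321 were not matched. A gene is given by its brightest kept probe. A model of 8 group means was fitted (lmFit, eBayes) with 16 residual degrees of freedom, and p-values were adjusted by Benjamini-Hochberg over all kept probes. Changes of state and interactions were called at an adjusted p under 0.05, and genotype differences by the 4 criteria of the methods, with p and false discovery rate from limma and the Z-ratio from the normalized log2 differences in place of the study's Z-scores (Z-scores are an alternative). The criterion of a signal above 0 was met by every kept probe after this correction. Intervals are 95% and from the same fit. Correlations of replicate arrays were 0.949 to 0.989, and at most 0.973% of intensities of a pair were equal.

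Members, marker lists (naïve, activated, Th2, pan-T, B, myeloid, CD8 and NK, endothelial), BCL2 and autophagy genes, interferon-induced GTPases and the motifs were chosen with earlier results of these data known. Named genes were all members, the 10 most correlated genes (1 of them is not reported here), the 4 called BCL2 and autophagy genes of largest difference per WT comparison, and the 4 neighbours of largest difference. Others named from lists were chosen after their values were seen. Coordinates come from the GRCm38.p6 gene table. Probe positions were not used here.

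The calling was tested on simulated data, with 200 of 14246 probes changed. For stimulated minus resting WT Th2 cells, 1.00% of log2 changes of 0.5, 74.0% of those of 1 and 99.0% of those of 2 were recovered. For the genotype criteria in resting naïve cells these were 31.0%, 87.5% and 99.5%, with 25.2% to 28.0% of the calls false. In the measured data 27.3% of all probes passed for stimulated minus resting WT Th2 cells. The adjusted p depends on the share of probes changed, and recovery at that share was not simulated.

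Alternatives were Z-score normalization as in the methods, quantile normalization without background correction, no detection filter, only the arrays of the comparison, the replicate letter as a block, each array left out, the other call rule, and the mean of a gene's probes. Arrays of replicates A and B only, and the comparison of the responses of Th2 and naïve cells, were chosen after seeing the data.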

Additional observations from a re-analysis of the deposited data

Results flagged for a closer look

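The response to stimulation differed between Th2 and naïve cells for 3 GIMAP genes in both genotypes, by a contrast of the 2 responses in the same limma fit that was added after the values were seen. At an adjusted p under 0.05 this contrast passed for 25.0% of all probes in WT and 26.4% in KO cells. Gimap5 rose in Th2 cells (2.27) and gave -0.10 in naïve cells in WT, a difference of 2.37 (SE 0.66, adjusted p = 0.0106), and 2.47 in KO cells (adjusted p = 0.00781). Gimap6 fell less in Th2 cells, by a difference of 2.22 (SE 0.34, adjusted p = 5.28e-05) in WT and 2.15 (adjusted p = 7.34e-05) in KO cells. Gimap7 fell more in Th2 cells, with a difference of -1.65 (SE 0.46, adjusted p = 0.0112) in WT and -1.32 (adjusted p = 0.0396) in KO cells. The stimuli (antibodies or PMA and ionomycin) and their durations (24 h or 1.5 h) differed along with the cells and cannot be told apart from them. The naïve responses also use the resting naïve arrays, where summed B cell and myeloid markers were highest. The Gimap5 value of -0.10 depended on replicate C of the resting naïve WT arrays. The part of either in these differences was not tested.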

How the results depend on the processing

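With 3 arrays per group, 31.0% of simulated log2 changes of 0.5 were recovered by the genotype criteria in resting naïve cells, so differences of that size may have been missed. The changed probes were drawn from all kept probes, each with its own spread. The rate for the members, with a median SE of 0.25, was not simulated. The 27 member values called in the 6 changes of state kept their direction in all 378 combinations of value and alternative, and 44 of these no longer passed. Of 77 values not called, 35 changed sign in at least 1 alternative. With the other call rule 2 members were counted in place of 5 for stimulated naïve cells in WT, 2 in place of 5 in KO, and 2 in place of 4 for resting Th2 against naïve cells in WT. With only the arrays of the comparison the last count was also 2. For genotype in resting naïve cells it was 2 in place of 0 with replicates A and B only, and 0 to 2 with 1 array left out. Under the Z-score normalization Gimap5 gave 0.04 (WT) and 0.06 (KO) on naïve stimulation and Gimap9 0.22 in resting KO Th2 against naïve cells, all reversed and not called. Gimap1 in resting Th2 against naïve cells reversed to 0.13 (WT) and 0.07 (KO) with replicates A and B and to 0.25 (WT) with the mean of its probes. With 1 array left out, Gimap5 on naïve stimulation ranged from -0.96 to 0.34 (WT) and -0.51 to 0.03 (KO), Gimap9 from -0.68 to 0.06 (KO), Gimap1 in resting Th2 against naïve WT cells from -0.21 to 0.14, Gimap5 by genotype in resting naïve cells from -1.15 to 0.15 and Gimap7 by genotype in stimulated Th2 cells from -0.02 to 0.61. Apart from what the settings themselves change, the cause was not tested.

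The study speaks of 3 pairs of mice and of paired groups, but no source used here says that equal letters mark a pair. Deviations from group means of same-lettered WT and KO arrays correlated at 0.301 (A), 0.136 (B) and 0.516 (C), with 2 of 12 pairs at or below 0.1, and 13 of 24 arrays correlated best with their own letter. With the letter as a replicate block, Gimap3 in resting Th2 against naïve KO cells (-0.64, adjusted p = 0.0354) and Gimap1 on stimulation of KO Th2 cells (-0.59, adjusted p = 0.0441) passed, so that 4 in place of 3 and 5 in place of 4 members were counted. The block changed no other call of the values tabulated.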
